A study of Mus musculus with 6 samples.

Results

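The mevalonate pathway builds isoprenoids from acetyl-CoA, and the 7 genes described here encode enzymes of its steps up to farnesyl diphosphate: Acat2, Hmgcs1, Mvk, Pmvk, Mvd, Idi1 and Fdps. They were taken by symbol from a deposited table of 31384 genes, all 7 were found in it, and all 7 passed the filter on low counts that left 16121 genes tested. The RNA came from a mouse spermatogonial stem cell line grown over mouse embryonic fibroblasts, treated with mitomycin C to serve as feeders, with EGF, LIF and FGF2 in the medium of every group, and was collected on day 18. The PTC group also received 10 ng/mL GDNF, a growth factor on which such stem cells depend in culture. The NTC group received no GDNF, and the LOVA group received 5 µM lovastatin in its place. Each group had 2 libraries, named here by the letter, A or B, in the header of the column. The labels do not say whether they came from separate cultures, so the p-values measure only the spread between these libraries, which may be technical.

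Farnesyl diphosphate is the branch point from which cells make cholesterol on one side and prenyl groups, ubiquinone and dolichol on the other. Statins such as lovastatin block the step of the pathway that makes mevalonate. Transcription of the genes of the pathway is driven by SREBP2, a factor held in the membrane of the endoplasmic reticulum and released when sterols run low, which acts on sterol regulatory elements together with the factors NF-Y and Sp1.

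In their order along the pathway, Acat2 joins 2 molecules of acetyl-CoA, and Hmgcs1 adds a further one to give HMG-CoA. Mvk and Pmvk are kinases that phosphorylate mevalonate in turn, and Mvd, a decarboxylase, turns the product into isopentenyl diphosphate. Idi1 isomerises that unit, and Fdps joins the units into farnesyl diphosphate. In GENCODE M21 (GRCm38, the build called mm10), Acat2 lies on the minus strand of chromosome 17 from 12942890 to 12960747, Hmgcs1 on the plus strand of chromosome 13 from 119690379 to 119708260 and Idi1 on the plus strand of the same chromosome from 8885501 to 8892451. Mvk lies on the plus strand of chromosome 5 from 114444269 to 114460591, and Mvd on the minus strand of chromosome 8 from 122433601 to 122443422. Pmvk (plus strand, 89454541 to 89469013) and Fdps (minus strand, 89093588 to 89101959) are both on chromosome 3. In pathway order, the table lists the 7 genes as ENSMUSG00000023832, ENSMUSG00000093930, ENSMUSG00000041939, ENSMUSG00000027952, ENSMUSG00000006517, ENSMUSG00000058258 and ENSMUSG00000059743.

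Promoters of 3 members are shown. Hmgcs1 held the only match to the sterol regulatory element searched, and Mvk held the most NF-Y letters. Mvd held fewer matches than either, and its fold change in LOVA against NTC was among the higher ones of the 7. A link between matches and fold changes was not tested. Each run gives the 250 bases before the RefSeq start of the gene, 5′ to 3′ on the strand of the gene (build GRCm38.p6), at chr13:119690101-119690350 on the plus strand for Hmgcs1, chr5:114444019-114444268 on the plus strand for Mvk and chr8:122443423-122443672 on the minus strand for Mvd. Capitals mark matches, on either strand, to the sterol regulatory element TCACNCCAC, the NF-Y letters CCAAT and the Sp1 letters GGGCGG.
Hmgcs1: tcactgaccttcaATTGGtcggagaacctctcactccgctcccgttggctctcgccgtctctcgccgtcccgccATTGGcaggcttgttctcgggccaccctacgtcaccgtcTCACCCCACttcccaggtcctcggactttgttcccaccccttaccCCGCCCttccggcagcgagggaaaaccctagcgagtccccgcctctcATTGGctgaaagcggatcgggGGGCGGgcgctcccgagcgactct
Mvk: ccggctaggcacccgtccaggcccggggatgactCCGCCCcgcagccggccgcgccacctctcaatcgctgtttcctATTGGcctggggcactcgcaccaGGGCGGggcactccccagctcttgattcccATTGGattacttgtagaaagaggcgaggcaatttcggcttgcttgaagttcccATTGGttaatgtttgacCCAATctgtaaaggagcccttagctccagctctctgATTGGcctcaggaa
Mvd: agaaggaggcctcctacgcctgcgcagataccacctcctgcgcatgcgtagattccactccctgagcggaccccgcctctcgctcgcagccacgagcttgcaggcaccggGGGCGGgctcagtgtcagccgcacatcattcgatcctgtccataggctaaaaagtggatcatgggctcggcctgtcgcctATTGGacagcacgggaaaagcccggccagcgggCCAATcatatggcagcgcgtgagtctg

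The RefSeq promoter table, with windows of 300 bases that run 250 before to 50 after a start, held 6 of the 7 members, and Pmvk had 2 windows in it. No window was listed for Fdps. The sterol element letters were in the Hmgcs1 window, at position -137 from the start, and in 1.24% of all 32851 windows. NF-Y letters occurred 5 times in the Mvk window, 4 times in that of Hmgcs1, 2 times each in those of Mvd and Idi1, 1 time in 1 of the Pmvk windows and 0 times in that of Acat2, and 37.4% of all windows held at least 1. Of the matches in the Hmgcs1 window, 1 to NF-Y and 1 to Sp1 lie after the start and so outside the run shown. Sp1 letters were in the windows of Hmgcs1, Mvk, Mvd, Idi1 and Acat2 and in 35.7% of all windows. No match of 1 motif overlapped a match of another in the 3 promoters shown, and a match is a description of letters, not a bound site.

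**Figure D1:**
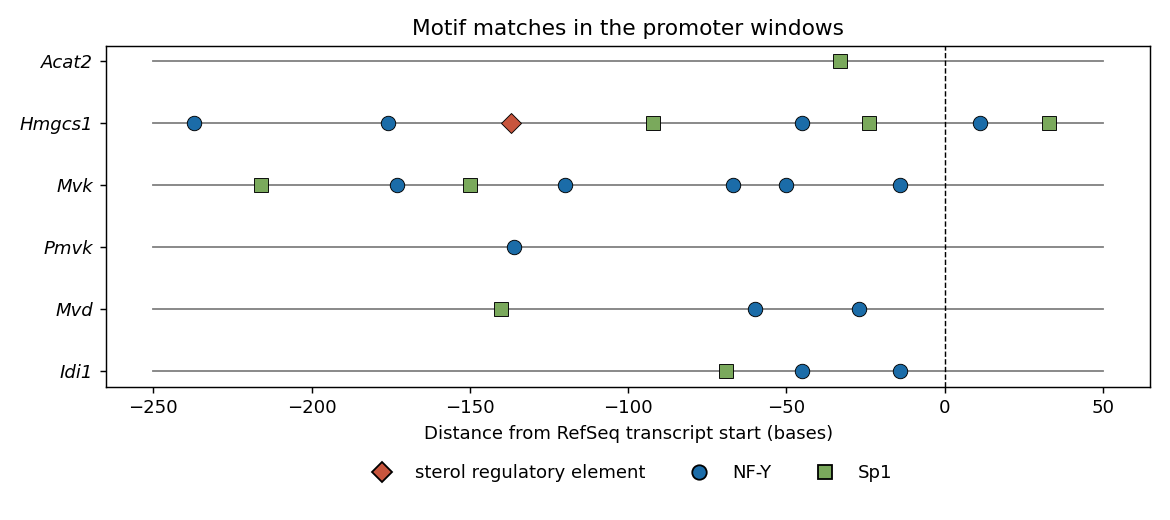
Positions of motif matches in the RefSeq promoter windows of 6 members, as distance in bases from the transcript start (dashed line); diamonds are the sterol regulatory element letters, circles NF-Y and squares Sp1, and both Pmvk windows share a line. The single diamond is in Hmgcs1 at -137, and Mvk carries the most circles, 5.

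Total counts ranged from 12454671 to 22668087 per library, and 3 counts, the floor used for a gene without reads, were worth 0.128 to 0.258 CPM (counts over library totals that TMM has scaled, brought to 1 common total), for counting error only. Markers of germ cells, 17 genes of which none was at 0 throughout, took 0.526% to 0.538% of counts in PTC, 0.192% to 0.289% in NTC and 0.180% to 0.346% in LOVA. Feeder fibroblast markers, 20 genes, took 0.150% to 0.634%, 1.69% to 2.94% and 1.52% to 2.94% in the same order. Macrophage markers, 12 genes of which, as among the feeder markers, none was at 0 throughout, took 0.0279% to 0.0329% in PTC, 0.216% to 0.271% in NTC and 0.0467% to 0.0568% in LOVA. Sertoli, Leydig and endothelial markers took under 0.00340% of any library. Of the 8 Sertoli markers only Fshr was at 0 in all 6 libraries, and none of the 6 Leydig and 6 endothelial markers was. In such mixed RNA, fewer cells of a type and less RNA per cell cannot be told apart.

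The transcripts of the 7 enzymes together summed to 1075 CPM in PTC A, 1080 in PTC B, 775 in NTC A, 864 in NTC B, 1825 in LOVA A and 1708 in LOVA B. Both LOVA libraries were above all others, and both NTC libraries below all others. Levels of different genes were set side by side per kb of exon, with the union of all annotated exons of a gene as its length. That union can be longer than the transcript expressed, so comparisons between genes depend on the annotation. By this measure Hmgcs1 had the highest mean level in every group, at 78.2 ± 1.27 CPM per kb in PTC (SD, n = 2), 65.7 ± 10.9 in NTC and 132 ± 14.8 in LOVA. The 2 kinases had the lowest. Mvk was at 6.40 ± 0.823, 8.14 ± 0.651 and 17.7 ± 0.427 CPM per kb in PTC, NTC and LOVA, and Pmvk at 3.56 ± 0.396, 6.79 ± 0.599 and 10.0 ± 2.59. In mean level the top member exceeded Pmvk 21.9-fold in PTC, 9.69-fold in NTC and 13.2-fold in LOVA.

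In PTC the order from high to low, per kb of annotated exon, was Hmgcs1, Fdps, Idi1, Acat2, Mvd, Mvk and Pmvk. In NTC and LOVA it was the same except that Idi1 came before Fdps. Most neighbours in this order were apart in both libraries. The neighbours whose libraries overlapped were Hmgcs1 and Fdps in PTC, Idi1 and Fdps in NTC, and Fdps and Acat2 in LOVA.

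**Figure D2:**
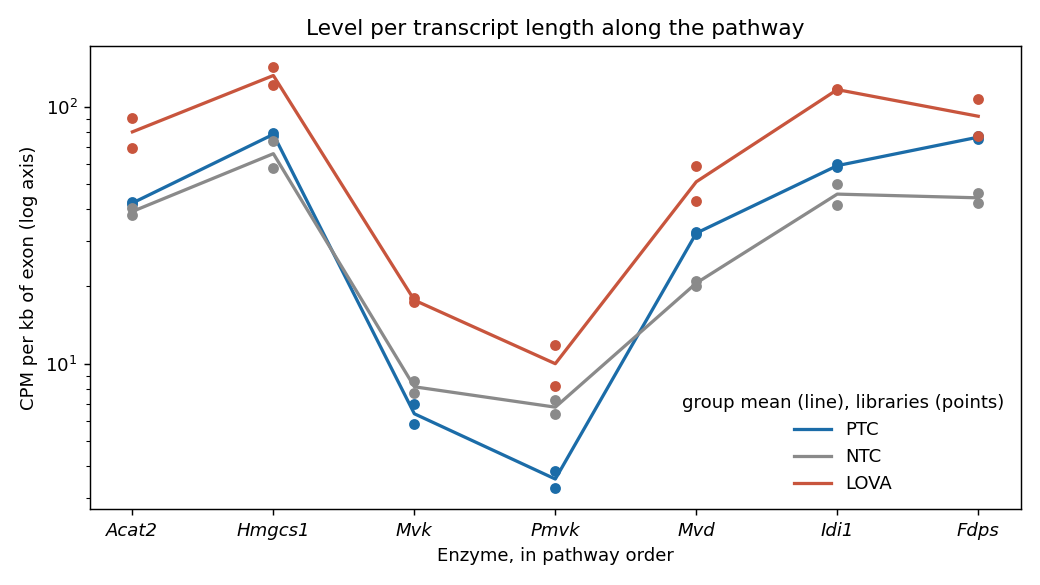
Level of each enzyme transcript in CPM per kb of exon (log axis), in pathway order, with lines through the group means and 1 point per library. Mvk and Pmvk form the trough in all 3 groups, and the LOVA line lies above both others at every enzyme.

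With TMM scaling, the 7 transcripts did not share a direction when GDNF was left out. Fdps and Mvd then fell in NTC against PTC, Pmvk rose, and Acat2, Hmgcs1, Mvk and Idi1 did not pass the test. With libraries scaled to the germ cell markers instead, all 7 log2 fold changes were positive, from 0.29 to 1.99. That scaling shifted the median of all genes by 1.08. Calls were made with edgeR's quasi-likelihood test, at a p under 0.05 after Benjamini-Hochberg adjustment over all 16121 genes. So 3 of 7 members were called, which for so few genes is near the share of all genes tested. That share was 34.5%, with 21.5% called higher and 12.9% lower. The median log2 fold change of the 7 was -0.25, beside -0.02 over all genes tested.

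Fdps, whose product farnesyl diphosphate feeds both branches, stood at 325 and 316 CPM in the A and B libraries of PTC, and at 195 and 178 in those of NTC. The groups did not overlap, and the log2 fold change was -0.78 (SE 0.20, 95% interval -1.25 to -0.32, adjusted p = 0.0254). Mvd, the decarboxylase, was at 59.4 and 60.5 CPM in PTC and at 39.2 and 37.5 in NTC. Its PTC libraries both lay above its NTC libraries, a difference of -0.65 on the log2 scale (SE 0.20, adjusted p = 0.0465). Pmvk, the second kinase, went the other way, from 6.58 and 5.63 CPM in PTC to 12.3 and 10.9 in NTC. The difference was 0.93 on the log2 scale (SE 0.30, interval 0.22 to 1.63, adjusted p = 0.0495), on counts of 105 to 169 per library.

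The remaining 4 genes had smaller fold changes. Idi1, the isomerase, was at 204 and 210 CPM in PTC and 146 and 175 in NTC, which gave -0.37 on the log2 scale (SE 0.16, adjusted p = 0.112). Hmgcs1 was at 355 and 363 CPM in PTC against 267 and 337 in NTC, and its adjusted p was 0.304. Acat2 was at 109 and 106 CPM against 96.2 and 103, with an interval of the log2 fold change from -0.54 to 0.32. Mvk was at 15.6 and 18.7 CPM in PTC and 20.6 and 23.0 in NTC (0.35, SE 0.20, adjusted p = 0.216). In all 7 genes the 2 groups did not overlap, with NTC higher in 2 and lower in 5; of all genes tested, 39% and 38.5% were apart in these directions.

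The 3 calls were all lost when any 1 of PTC A, PTC B, NTC A or NTC B was left out, with 0 of 7 called in each case and an adjusted p between 0.0879 and 0.228 for the 3 genes. With libraries scaled to the germ cell markers, a change that shifted the all-gene median by 1.08, Fdps, Mvd, Idi1, Hmgcs1 and Acat2 turned to 0.29, 0.43, 0.74, 0.86 and 0.98, none called, and relative to that shift they lay at -0.79, -0.65, -0.34, -0.22 and -0.10. Pmvk remained called with that scaling, at 1.99, and Mvk became called, at 1.45, relative to the shift 0.91 and 0.37. The Pmvk call was also lost with limma-voom (adjusted p = 0.0505) and with library totals in place of TMM (0.0909), a scaling that moved the median of all genes by -0.11. Germ cell marker shares were lower in NTC than in PTC in both libraries, and feeder and macrophage marker shares were higher; their part in these differences was not tested.

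**Figure D3:**
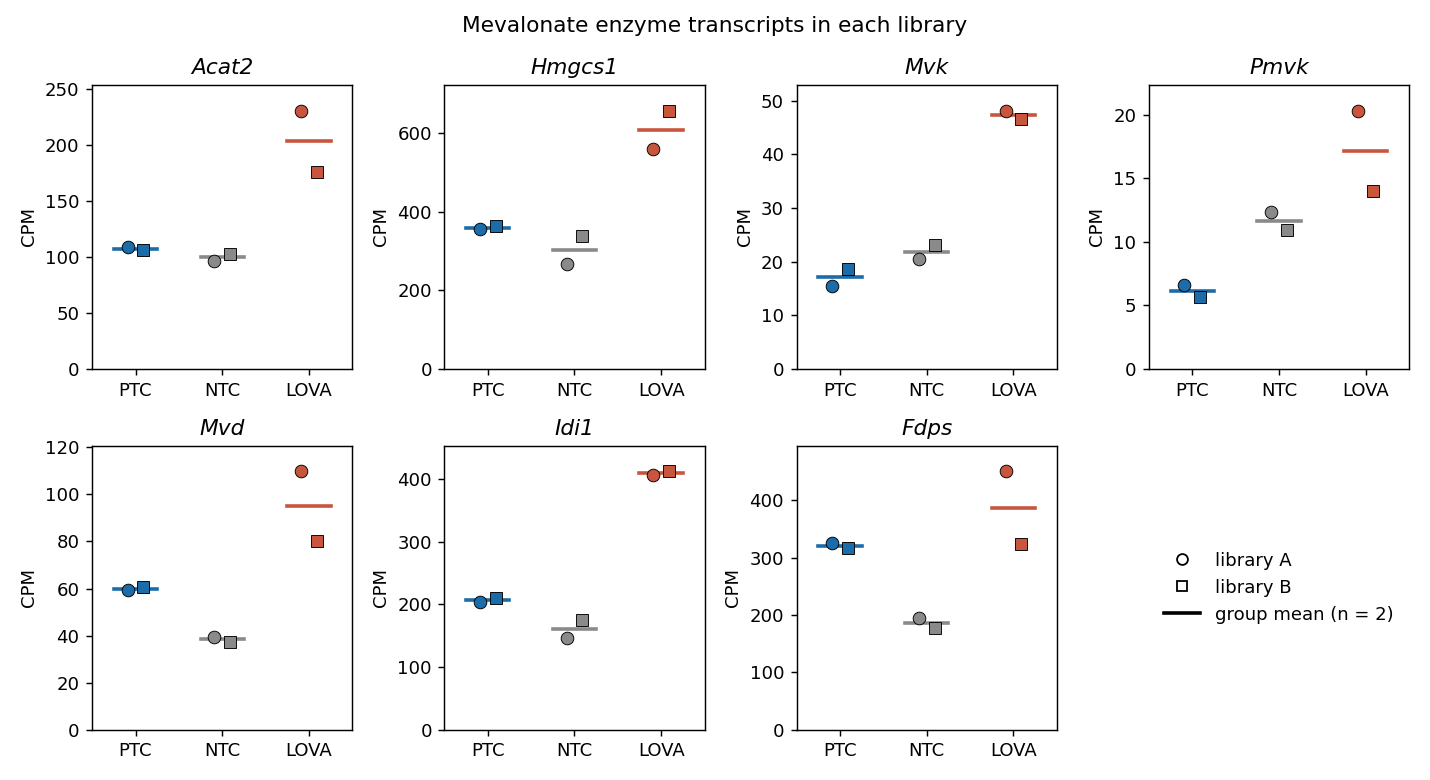
CPM of each enzyme transcript in the 6 libraries, on linear axes from 0, with circles for A, squares for B and a bar at the group mean (n = 2). In every panel both LOVA points lie above both NTC points, and in Fdps the LOVA B point at 323 CPM lies between the PTC points at 316 and 325.

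With lovastatin in medium without GDNF, all 7 transcripts lay above their NTC levels in both libraries, but none passed the test over all genes. Fold changes of LOVA against NTC ran from 0.56 for Pmvk to 1.35 for Idi1 on the log2 scale, with a median of 1.05 beside 0.01 over all genes tested, of which 51% were positive. Both LOVA libraries were above both NTC libraries in 7 of 7 members, as in 12.7% of all genes tested. In edgeR 0 of 7 members and 0% of all genes were called. On simulated data the same test recovered only 5% of genes changed 2-fold between these groups, so a missing call does not show a missing change. At an unadjusted p under 0.05, 6 of 7 members were higher, as were 1.35% of all genes, and 561 genes passed in either direction.

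With all libraries Idi1 and Mvd had the highest log2 fold changes of the 7. Idi1 stood first, but Mvd lay above it without LOVA B (1.52 against 1.34) or without NTC A (1.32 against 1.20). Idi1 was measured with 146 and 175 CPM in its NTC libraries and 406 and 412 in its LOVA libraries. The LOVA libraries differed from each other by a factor of 1.01, and the lower one exceeded the higher NTC library 2.32-fold. The log2 fold change was 1.35 (SE 0.16, 95% interval 0.97 to 1.74, adjusted p = 0.0764). Mvd was at 39.2 and 37.5 CPM in NTC and 110 and 80.2 in LOVA, a difference of 1.31 on the log2 scale (SE 0.20, interval 0.82 to 1.79, adjusted p = 0.188). Its LOVA A library was 1.37 times its LOVA B library, yet even the lower one was 2.05 times the higher NTC library.

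Mvk, the first kinase, was at 20.6 and 23.0 CPM in NTC and 48.1 and 46.5 in LOVA, 2.17-fold higher (log2 SE 0.21, adjusted p = 0.272). Like Idi1 it was close between the LOVA libraries, and the groups were well apart. Fdps was at 195 and 178 CPM in NTC and at 450 and 323 in LOVA (1.05, SE 0.20, adjusted p = 0.287). Acat2 was at 96.2 and 103 CPM in NTC and at 231 and 176 in LOVA (1.03, SE 0.18, adjusted p = 0.262). In Fdps, Acat2 and Mvd the A library of LOVA was the higher one, while in Hmgcs1 it was the lower one, at 560 CPM against 656 in B.

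Hmgcs1 went from 267 and 337 CPM in NTC to those levels in LOVA, a log2 fold change of 1.01 with an interval from 0.58 to 1.44. Pmvk was at 12.3 and 10.9 CPM in NTC and at 20.3 and 14.0 in LOVA. Its interval, from -0.13 to 1.26, was the only one of the 7 that reached 0, and its adjusted p was 1. Its log2 fold change was 0.27 without LOVA A and 0.81 without LOVA B. Pmvk also had the fewest counts, 155 to 285 per library in these 2 groups.

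The outcome of the test depended on the tool and its settings. DESeq2, where the log2 fold changes ran from 0.55 to 1.34, called 6 of 7 members higher, where it called 0.0854% of genes higher, with adjusted p from 3.37e-06 for Idi1 to 0.0171 for Hmgcs1. Over all genes it called 19 higher and 86 lower. The 6 called were all members but Pmvk. The same 6 were called in edgeR without a filter on low counts (0.183% of genes called higher). limma-voom called 0 of 7, and 0% of all genes higher, with an adjusted p of 0.0541 for Idi1, and scaling to the germ cell markers also left 0 called, with the 7 log2 fold changes between 0.46 and 1.29. Macrophage marker shares were lower in both LOVA libraries than in both NTC libraries, and germ cell and feeder marker shares of the groups overlapped; their part in the fold changes was not tested.

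**Figure D4:**
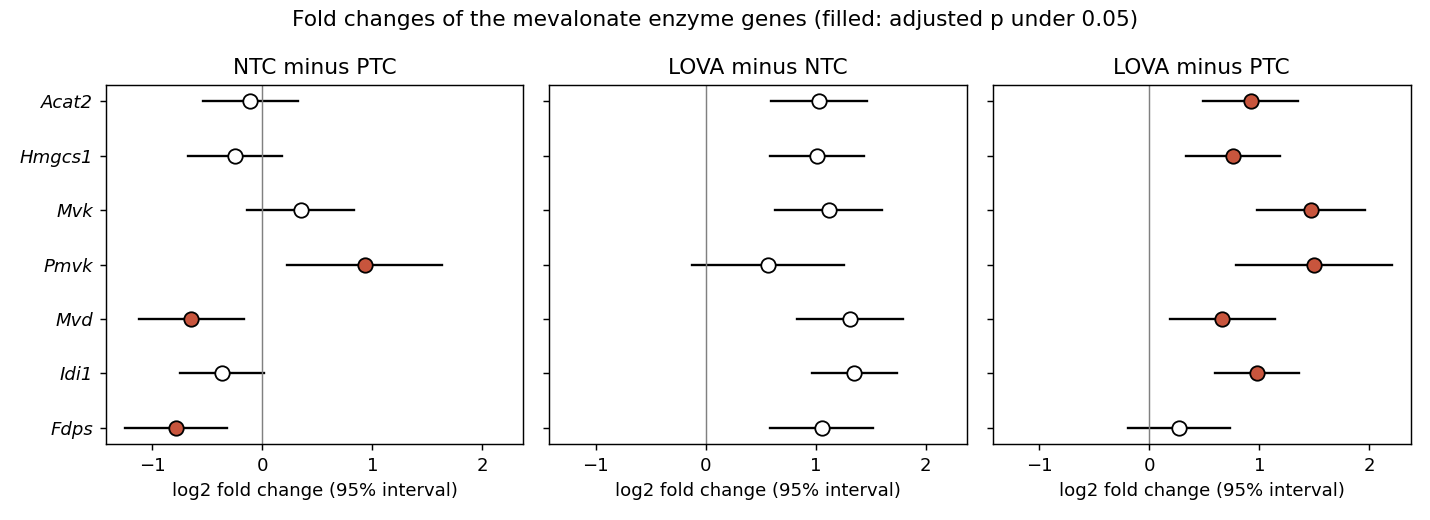
Log2 fold changes of the 7 genes in the 3 comparisons, with 95% intervals from the edgeR fit; filled points were called at an adjusted p under 0.05. In LOVA minus NTC all 7 points lie between 0.56 and 1.35 and none is filled, and in LOVA minus PTC 6 are filled. In NTC minus PTC Fdps and Mvd lie below 0 and Pmvk above it. With libraries scaled to germ cell markers the points below 0 turn positive, while the median of all genes shifts by 1.08.

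Against the GDNF culture, 6 of the 7 transcripts rose with lovastatin: Acat2, Hmgcs1, Mvk, Pmvk, Mvd and Idi1. Fdps did not pass the test. Of all genes tested 30.6% were called in this comparison, 19.8% as higher, and the groups were apart with LOVA higher in 6 of 7 members and 38.4% of all genes. The median log2 fold change of the 7 was 0.92 beside 0.00 over all genes. This comparison shares the LOVA libraries with the one above and the PTC libraries with the first, so its values are not a further replicate of either.

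The 2 kinases had the largest fold changes. Pmvk rose from 6.58 and 5.63 CPM in PTC to 20.3 and 14.0 in LOVA (1.49, SE 0.30, interval 0.78 to 2.20, adjusted p = 0.0197). Mvk rose from 15.6 and 18.7 to 48.1 and 46.5 CPM (1.47, SE 0.21, interval 0.98 to 1.96, adjusted p = 0.0167). For both genes the NTC level lay between those of PTC and LOVA. Idi1 rose 1.98-fold (log2 SE 0.16, adjusted p = 0.0168) and Acat2 1.89-fold (log2 SE 0.18, adjusted p = 0.0196).

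Hmgcs1 rose 1.69-fold (log2 SE 0.18, adjusted p = 0.0263) and Mvd 1.58-fold (log2 SE 0.20, adjusted p = 0.0461). In these genes, as in Idi1 and Acat2, the mean NTC level was the lowest of the 3. Fdps, the last enzyme of the 7, was at 325 and 316 CPM in PTC and at 450 and 323 in LOVA, so that the groups overlapped. Its log2 fold change was 0.27 (SE 0.20, adjusted p = 0.309), and the interval, from -0.19 to 0.73, allows a rise of up to 1.66-fold. Without LOVA A that fold change was 0.01, and without LOVA B it was 0.49.

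Without PTC A none of the 6 calls remained and without PTC B only that of Mvk did, while the log2 fold changes of the 6 genes then lay between 0.65 and 1.61. Mvd lost its call in further settings, with library totals in place of TMM (adjusted p = 0.105), with no filter on low counts (0.0502) and with the 2 groups fitted alone (0.0796), and without LOVA A its log2 fold change was 0.41 (0.115). Mvd was also not called without NTC A (0.0955) or NTC B (0.0835), and Hmgcs1 not without LOVA B (0.0787). With libraries scaled to the germ cell markers, a change that shifted the all-gene median by 1.03 here, all 7 were called, Fdps at 1.25, or 0.22 relative to the shift. Feeder marker shares were higher and germ cell marker shares lower in both LOVA libraries than in both PTC libraries, macrophage marker shares were higher as well, and their part was not tested.

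Past farnesyl diphosphate the pathway divides into its branches. In LOVA minus NTC all 12 genes of the sterol branch, which turns farnesyl diphosphate into cholesterol, had positive log2 fold changes, with a median of 0.96, and in 11 both LOVA libraries were above both NTC libraries, as in 12.7% of all genes tested. None of the 12 was called in edgeR. Lss, the cyclase that forms lanosterol, averaged 58.1 ± 0.803 CPM (SD, n = 2) with NTC and 149 ± 15.9 with LOVA, a difference of 1.36 on the log2 scale (SE 0.16, adjusted p = 0.0764). Cyp51, which removes a methyl group from lanosterol, averaged 117 ± 31.6 and 277 ± 0.658 CPM (1.25, SE 0.21, adjusted p = 0.240).

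The 16 genes of the isoprenoid branch, which make geranylgeranyl diphosphate, ubiquinone and dolichol or attach and trim prenyl groups on proteins, had a median log2 fold change of -0.05, with 6 positive and 10 negative. None was called, and in 2 the LOVA libraries lay above and in 2 below both NTC libraries, which is near the 12.7% and 13% of all genes tested. Ggps1, which makes geranylgeranyl diphosphate from the product of Fdps, averaged 47.2 ± 1.28 CPM with NTC and 45.7 ± 2.05 with LOVA (-0.05, SE 0.17). Rabggtb, a subunit of the enzyme that prenylates Rab proteins, averaged 46.4 ± 3.26 and 34.8 ± 2.42 CPM (-0.42, SE 0.19, adjusted p = 1), and Pdss1, of ubiquinone tail synthesis, averaged 6.82 ± 1.17 and 4.87 ± 1.25 CPM. The difference between the branches was not tested.

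The genes that supply the pathway or sense its product were mixed. Of 10 genes for acetyl-CoA supply and ketone bodies, 5 had positive and 5 negative log2 fold changes (median -0.02). Aacs, which activates acetoacetate for lipid synthesis, averaged 51.0 ± 4.59 CPM with NTC and 87.9 ± 4.34 with LOVA (0.78, SE 0.17, adjusted p = 0.439), and Acly, which makes cytosolic acetyl-CoA from citrate, averaged 512 ± 5.66 and 797 ± 225 CPM (0.64, SE 0.22, adjusted p = 1). Of 12 genes for sterol sensing and uptake, 8 were positive (median 0.07). Insig1, which retains the SREBP complex in the endoplasmic reticulum, averaged 240 ± 28.8 CPM with NTC and 439 ± 45.5 with LOVA (0.87, SE 0.17, adjusted p = 0.348).

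**Figure D5:**
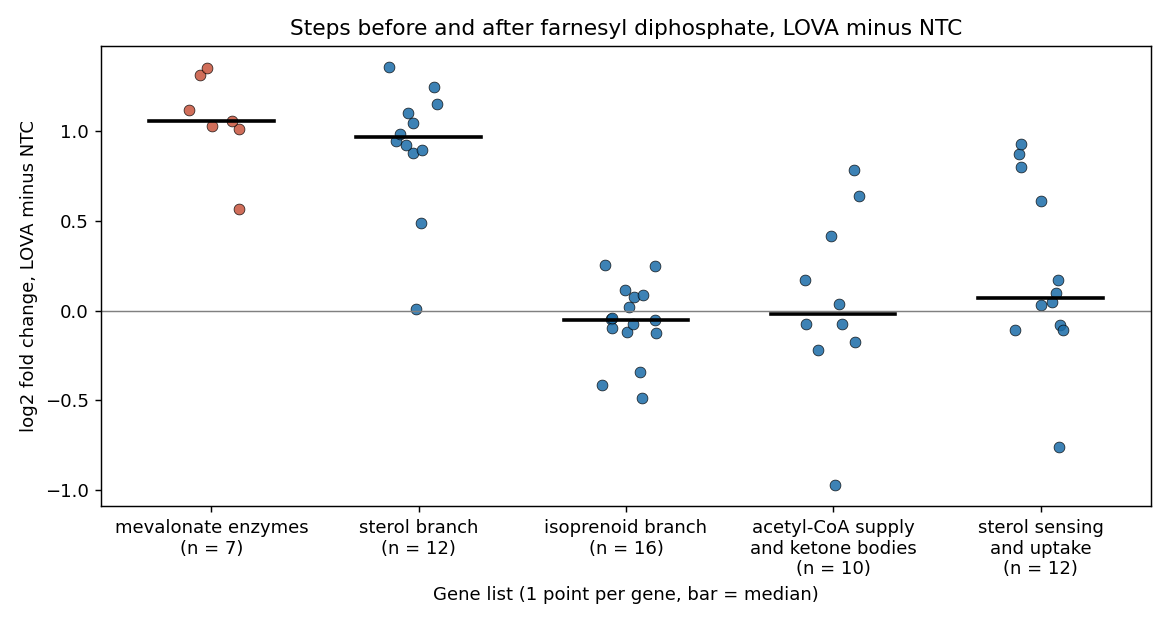
Log2 fold changes of LOVA minus NTC for each gene of 5 lists, with 1 point per gene and a bar at the median. The mevalonate (median 1.05) and sterol branch (0.96) genes lie above 0, though Ebp of the sterol branch is only at 0.01. The isoprenoid branch has its median at -0.05.

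In NTC minus PTC, 3 of the 12 sterol branch genes fell and 1 rose, and 4 of the 16 isoprenoid branch genes rose and 0 fell, where 21.5% of all genes tested rose and 12.9% fell. Fdft1, which draws farnesyl diphosphate into the sterol branch, fell by 0.85 on the log2 scale (adjusted p = 0.0239), and Dhcr7, of the last steps, fell by 0.89, while Ebp, a sterol isomerase, rose by 2.33. With libraries scaled to the germ cell markers, which shifted the all-gene median by 1.08, Fdft1 and Dhcr7 turned to 0.25 and 0.20, neither called. In LOVA minus PTC, 7 of 12 sterol branch genes rose and 0 fell, and again 4 of 16 isoprenoid branch genes rose and 0 fell, where 19.8% of all genes tested rose and 10.8% fell. The isoprenoid count of risen genes, 4 of 16, was near the share over all genes in both comparisons. Those 4 were Dolk, Fnta, Rabggtb and Zmpste24 in both comparisons with PTC, which share the PTC libraries. Fdft1 was at 0.03 in LOVA minus PTC, not called. The genes of this paragraph other than Rabggtb were named after their values were seen.

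Of 7 paralogs and relatives of the members, 6 were tested, and in LOVA minus NTC none was called and the median log2 fold change was -0.06, with 1 positive and 5 negative. Acat1, the mitochondrial thiolase, averaged 128 ± 2.07 CPM with NTC and 122 ± 0.943 with LOVA (-0.07, SE 0.15). Idi2, a second isomerase gene, had 1 count in LOVA A and 0 in the other 5 libraries, so it was not tested. Galk1 and Galk2, sugar kinases related to Mvk, were at -0.04 and -0.38 in LOVA minus NTC, not called. Against PTC, Galk1 fell and Galk2 rose in both NTC and LOVA. With libraries scaled to the germ cell markers, Galk1 was at 0.04 in NTC and -0.07 in LOVA against PTC, not called. That scaling shifted the all-gene median by 1.08 and 1.03 in these comparisons.

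Some members share sequence with other genes, so their counts carry an uncertainty. Of all 75-base windows of the annotated Acat2 transcripts, 33.9% also occur in Acat3, its neighbour on chromosome 17. Acat3 had 9 to 30 counts per library, against 1208 to 3237 for Acat2. For Fdps 23.5% of windows were shared, most of them with Gm43738, an overlapping gene model with 0 to 10 counts. For Idi1 16.7% were shared, most of them with Gm13502, a symbol that matched no gene in the deposited counts. Hmgcs1, Mvk, Pmvk and Mvd shared 0 windows. Gm48342, an antisense gene over Hmgcs1, had 3 to 36 counts per library; whether the counting used strand is not given in the sources used here. Gm20388, on the strand opposite to Mvd and overlapping it with no shared exon bases, had 70 to 110 counts in PTC and 944 to 1436 in NTC and LOVA.

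The 7 members were not equally alike across the 6 libraries. The log2 CPM of Acat2 followed the mean of the other 6 members most closely (r = 0.99), then Idi1 (0.96), Hmgcs1 (0.91), Mvk (0.89) and Mvd (0.88), while Fdps (0.69) and Pmvk (0.58) followed it less. These r are descriptions over 6 libraries in 3 groups. Among 11360 other genes with a mean of at least 5 CPM, those whose pattern was most like the mean of the 7 were Erg28 (r = 0.998), Plxna3 (0.98), Zmym6 (0.97), Pidd1 (0.97) and Lss (0.97). Erg28, an endoplasmic reticulum protein tied to sterol synthesis, was at 65.9 ± 0.0880 CPM in PTC, 62.1 ± 0.827 in NTC and 89.2 ± 6.93 in LOVA, a log2 fold change of 0.52 in LOVA minus NTC (SE 0.16, adjusted p = 1). Of the 12 sterol branch genes, Lss, Cyp51, Nsdhl and Sqle ranked among the first 12 by this measure, named after their ranks were seen.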

How the data were processed

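RNA of 6 libraries (PTC, NTC and LOVA, 2 each) was measured by strand-specific paired-end sequencing, per the labels' protocols. The authors deposited raw counts per Ensembl gene, whole numbers with no normalization. Tools named in the submitters' processing notes are RSEM, Bowtie2, Trimmomatic and DESeq2, with no versions or roles, and the build is mm10. Whether the counts are rounded RSEM estimates is not given in the sources used here. Symbols, matched for 31363 of 31384 genes, coordinates and exon lengths came from GENCODE M21. Columns carry the letters A and B, which nothing ties to the labels' replicate numbers.

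Genes were kept by filterByExpr and scaled by TMM. They were fitted over all 6 libraries, with 1 coefficient per group and 3 residual degrees of freedom. The fit used edgeR 4.0.16 (quasi-likelihood, robust, R 4.3.3) and was also tested on simulated data with 100 changed genes. Of 2-fold changes it recovered 5% between LOVA and NTC, with 10 false calls. Between NTC and PTC it recovered 11%, with 7 false calls, and between LOVA and PTC 13%, with 20. Of 4-fold changes it recovered 82%, 89% and 88% in the same order. Alternatives, described in the closing section, used DESeq2 1.42.0, limma 3.58.1, other scalings and filters, a block by letter and each library left out. Shares of marker genes use unscaled totals. The members, lists and tests were chosen with earlier results of these data known. Named genes were the 7 members, the paralogs, 2 genes per pathway list with the largest change in LOVA minus NTC and a mean of at least 5 CPM, and the 5 genes most alike in pattern; 2 genes so chosen are not reported here.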

Additional observations from a re-analysis of the deposited data

How the results depend on the processing

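Each of 21 results (7 genes in 3 comparisons) was recomputed under 14 alternatives, 294 values in all, of which 237 kept direction and side of the threshold, 32 lost a call, 20 gained one and 5 changed sign. With libraries scaled to the germ cell markers, the 5 reversed values in NTC minus PTC were 0.98 for Acat2, 0.86 for Hmgcs1, 0.43 for Mvd, 0.74 for Idi1 and 0.29 for Fdps; with that scaling the median over all genes shifted by 1.08. The number of members called in LOVA minus NTC was 0 in the fit described, 6 without a filter on low counts, 6 with DESeq2 and 6 with the replicate block by column letter; the cause was not tested. Leaving out 1 library gave 0 to 3 members called in NTC minus PTC, 0 to 0 in LOVA minus NTC and 0 to 5 in LOVA minus PTC, and where it left a group with 1 library, that library was assumed to vary like the others. Over all genes, 0.112% were called higher and 0.447% lower in LOVA minus NTC with the block, against 0% and 0% without it. The letters do not come from the labels and give 2 pairs between any groups, so they were not taken to pair the libraries; differences of B from A correlated between groups at r = 0.25 to 0.37 across genes, and the block changed no call of a member in the other 2 comparisons. Pmvk had the fewest counts of the 7, 105 to 285 per library, and the part of depth in its spread was not tested.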

Other observations

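Mvk shares its promoter region with Mmab, a cobalamin enzyme gene on the opposite strand whose annotated start lies 209 bases from that of Mvk. Among genes in the deposited counts, Mmab is the only one that starts on the opposite strand within 1000 bases of a member's start. It was looked at after the other values were seen. Mmab was at 21.2 ± 0.0243 CPM in PTC, 29.9 ± 3.26 in NTC and 38.0 ± 3.54 in LOVA (SD, n = 2). In LOVA minus PTC it rose by 0.84 on the log2 scale (SE 0.20, adjusted p = 0.0265 in edgeR's quasi-likelihood test), where Mvk rose by 1.47. In LOVA minus NTC it was at 0.35 (SE 0.20, adjusted p = 1), where Mvk was at 1.12. As for Mvk, each group was apart from the next, in the order PTC, NTC and LOVA.

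In PTC the 2 libraries of Acat2, Hmgcs1, Mvd, Idi1 and Fdps differed by factors of 1.02 to 1.03. Those of Mvk and Pmvk differed more, by factors of 1.20 and 1.17. In NTC the factors ran from 1.05 for Mvd to 1.26 for Hmgcs1. In LOVA the factor was 1.31 to 1.45 for Acat2, Mvd, Fdps and Pmvk, each higher in A, and 1.01 to 1.17 for Idi1, Mvk and Hmgcs1. Germ cell markers took 0.346% of counts in LOVA A and 0.180% in LOVA B, and feeder markers 1.52% and 2.94%; their part in these differences was not tested.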
